A study of Mus musculus with 6 samples.

Results

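Among CD4 T cells sorted from mouse spleen, 190 cells carried transcripts of complement C1q, and most of them also carried markers of red pulp macrophages. They were chosen by measured counts, with a sum of at least 3 UMIs of C1qa, C1qb and C1qc and no UMI of the B cell gene Cd79a. UMIs are barcodes of single captured RNA molecules, so 1 UMI counts as 1 molecule. Of 38073 barcodes called as cells, 29738 passed limits of at least 200 detected genes, at most 12000 UMIs and at most 5% mitochondrial UMIs, and the 190 C1q+ cells are 190 of these 29738. A further 26 called cells met the C1q minimum but failed the limits, 22 of them by their mitochondrial share and 4 by their UMIs. The Cd79a criterion removed 0 cells, and 132 of the 190 (69.5%) held UMIs of all 3 C1q chains.

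The libraries came from naive, untreated C57BL6/J mice, labelled as 8 weeks old, of which 3 were H2-O KO and 3 were H2-O WT, with 1 library per mouse. Spleen cells were sorted as CD3+ CD4+ B220- NK1.1-, with dead cells stained by propidium iodide removed, so that the gate was set for T cells and not for macrophages. RNA was counted with a 5′ single-cell assay on a droplet platform. H2-O is the mouse form of HLA-DO, a heterodimer of H2-Oa and H2-Ob that modulates peptide loading of MHC class II. The labels do not say which chain or exon was deleted, and H2-O WT is the only control group.

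Red pulp macrophages of the spleen take up old red blood cells and recycle their iron. Heme oxygenase (Hmox1) opens the heme ring, biliverdin reductases (Blvra, Blvrb) act on its product, ferritin (Fth1, Ftl1) stores the freed iron, and ferroportin (Slc40a1) exports it. The factor Spic drives their development, and C1q, which opens the classical complement pathway and tags dying cells, is made mostly by macrophages.

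H2-Oa (chromosome 17, 34092340 to 34095234 in GRCm38) checks the genotype only where it is expressed. In the C1q+ cells it had 1, 1 and 0 UMIs in H2-O KO libraries (replicates 1, 2, 3) versus 0, 1 and 0 in H2-O WT libraries, too few to compare. A set of 98 B cells in the same libraries, with at least 3 Cd79a UMIs and no C1q UMI, had 3, 8 and 2 H2-Oa UMIs in the H2-O KO libraries versus 4, 13 and 21 in H2-O WT. These were 22.1, 67.8 and 26.8 CPM (UMIs of the gene per 1000000 UMIs of the sum) versus 368, 223 and 504 CPM, and every H2-O KO library lay below every H2-O WT library. The B cell set held 35, 23 and 17 cells in the H2-O KO libraries versus 2, 11 and 10 in H2-O WT. The 368 CPM of H2-O WT replicate 1 thus rests on 2 cells.

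The libraries differed in depth. Called cells of a library held 9973193 to 40237962 UMIs. The median UMIs of the other kept cells, the 29113 without any C1q or Cd79a UMI, were 4741, 4822 and 3817.5 in the H2-O KO libraries versus 2127, 5076 and 2175 in H2-O WT. H2-O WT replicates 1 and 3 stood apart, since ribosomal protein genes took 13.2% and 12.0% of UMIs in their median other cell and 28.9% to 33.3% in the rest. The C1q+ cells numbered 38, 27 and 48 in the H2-O KO libraries versus 22, 23 and 32 in H2-O WT, with summed UMIs of 117250, 87585 and 72702 against 23648, 59163 and 57959. Of 37326 distinct barcodes, 740 (1.98%) occurred in more than 1 library. Of the barcodes of C1q+ cells, 7 were also called in another library and 0 were C1q+ there.

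The C1q threshold lay on a slope. Hmox1 was found in 1.55% of cells without C1q UMIs, 26.2% of the 145 cells with 1, 39.2% of the 51 cells with 2, 68.8% of the 32 cells with 3 and 79.9% of the 134 cells with 5 or more. Apoe, a lipid carrier of macrophages, followed the same order at 0.611%, 15.2%, 31.4%, 59.4% and 83.6%. Just outside the threshold, at 2 UMIs, the median cell had 2014 UMIs, and just inside, at 3, it had 1057.

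The first question was how many of the C1q+ cells also carried T cell RNA, since macrophages do not transcribe the T cell receptor. Cd3e, a chain of the receptor complex, was found in 18, 14 and 14 C1q+ cells in the H2-O KO libraries versus 3, 10 and 13 in H2-O WT, 72 of 190 in all (37.9%). Cd4, the co-receptor of helper T cells, was found in 13, 13 and 9 against 3, 6 and 7, 51 in all (26.8%), and 39 cells had both. Among other kept cells, 83.4% had a Cd3e UMI and 58.0% a Cd4 UMI, at a median of 4298 UMIs. In the B cell set, which should lack both, the shares were 11.2% and 13.3% at a median of 3929.5 UMIs. The C1q+ cells thus lay between T cells and the background in these libraries, but their median of 900.5 UMIs was lower than in either set. With every cell thinned to 500 UMIs, which left out 0 C1q+ cells, Cd3e was found in 15.0% ± 4.52 (SD, n = 6 libraries) of C1q+ cells, 29.0% ± 4.48 (SD, n = 6) of other kept cells and 5.04% ± 7.76 (SD, n = 6) of the B cell set. The B cell set held as few as 2 cells in a library.

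The sum of 6 receptor genes (Cd3e, Cd3d, Cd3g, Trac, Trbc1, Trbc2) split the C1q+ cells into ranges that differed in depth. No receptor UMI was found in 69 cells, 1 to 3 in 61 cells and 4 or more in 60 cells (31.6%). Few cells lay near the boundary, with 8 cells at 3 UMIs, 3 at 4 and 5 at 5. The 60 receptor-rich cells had a median of 5096.5 UMIs and 16 receptor UMIs, or 3.26 per 1000 UMIs, against 3.19 per 1000 in other kept cells. The 130 receptor-poor cells, with 0 to 3 receptor UMIs, had a median of 768 UMIs and 0.789 receptor UMIs per 1000, and 97 of them held under 1000 UMIs. The B cell set had 0.248 per 1000. Ribosomal protein genes took 29.3% of UMIs in the median receptor-rich cell, 14.9% in the receptor-poor and 29.9% in other kept cells.

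Receptor-rich cells carried macrophage transcripts too, with lower medians per cell in most lists. Red pulp macrophage genes had a median of 11.5 UMIs in receptor-poor and 8.5 in receptor-rich cells, pan-myeloid genes 10 and 6.5, and the class II list 5 and 3. Iron and heme genes had 32 and 27 and lysosomal genes 12 and 13, lists that other kept cells also express, at summed levels of 2617 and 1629.6 CPM. T cell genes had a median of 2 and 47 UMIs. As a share of all UMIs, the iron and heme genes took 4.29% in receptor-poor and 0.664% in receptor-rich cells. A droplet that held a macrophage or its fragment with a T cell and a single cell with both kinds of RNA cannot be told apart in these counts.

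**Figure D1:**
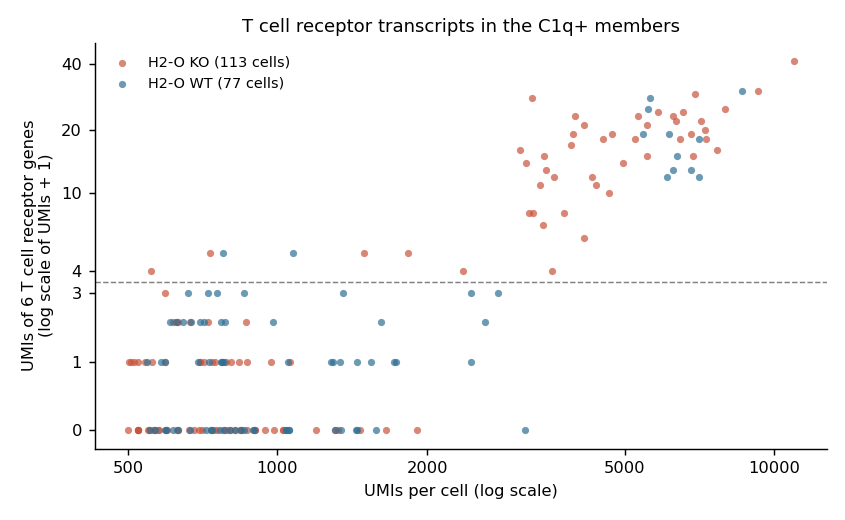
Each point is 1 of the 190 C1q+ cells, by its UMIs (horizontal, log scale) and its summed UMIs of 6 T cell receptor genes (vertical, log scale of UMIs + 1), coloured by genotype. The 60 cells above the dashed line, with 4 or more receptor UMIs, mostly lie above 3000 UMIs and the 130 cells below it mostly under 1000.

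Receptor-rich cells were more frequent among the C1q+ cells of H2-O KO libraries. They numbered 21, 14 and 12 in H2-O KO, or 55.3%, 51.9% and 25% of the C1q+ cells, and 1, 6 and 6 in H2-O WT, or 4.55%, 26.1% and 18.75%. H2-O KO replicate 3 overlapped H2-O WT replicate 2. Of all kept cells they were 0.277% ± 0.0846 (SD, n = 3) in the H2-O KO libraries versus 0.0977% ± 0.0504 (SD, n = 3) in H2-O WT, without overlap. The receptor-poor cells went the other way, at 0.382% ± 0.189 (SD, n = 3) versus 0.579% ± 0.236 (SD, n = 3), with overlap. These ranges were set after seeing the values and are given with no test. The libraries also differed in receptor UMIs of other kept cells, of which 96.4%, 94.0% and 83.9% had 4 or more in the H2-O KO libraries versus 51.7%, 79.8% and 53.6% in H2-O WT. Per 1000 UMIs, other kept cells held 3.41, 3.30 and 3.42 receptor UMIs against 2.72, 2.99 and 2.72. The part of these differences in the result was not tested.

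Thinned to 1500 UMIs, which left out 123 of the 190 cells, the share of C1q+ cells with Cd3e was 50.0%, 60% and 77.8% in the H2-O KO libraries versus 0%, 44.4% and 40% in H2-O WT. These shares rested on 22, 15 and 9 cells against 2, 9 and 10, and for H2-O WT replicate 1 a count of 0 in 2 cells sets no limit. The means were 62.6% ± 14.1 (SD, n = 3) and 28.1% ± 24.5 (SD, n = 3), without overlap (exact two-sided permutation test, p = 0.1, the smallest that 3 against 3 libraries allow). At 1000 UMIs, which left out 100 cells, the mean shares were 47.5% and 18.9% (exact permutation test, p = 0.1). Thinned to 500 UMIs, a depth chosen after seeing the data that kept all 190 cells, the shares were 15.4% and 14.7%, a difference of 0.750 percentage points (exact permutation test, p = 0.8). Without thinning they were 42.8% and 32.6% (exact permutation test, p = 0.5). At 3000 UMIs Cd3e was found in nearly every cell left, at mean shares of 95% and 95.2% (exact permutation test, p = 1.0).

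All C1q+ cells together made up 0.487%, 0.704% and 0.786% of kept cells in the H2-O KO libraries versus 0.873%, 0.497% and 0.660% in H2-O WT. Their Wilson 95% intervals ran from 0.355% to 0.668%, 0.484% to 1.02% and 0.593% to 1.04%, and from 0.577% to 1.32%, 0.332% to 0.745% and 0.468% to 0.931%, and cover counting error only. The means were 0.659% ± 0.154 (SD, n = 3) and 0.677% ± 0.188 (SD, n = 3), a difference of -0.0179 percentage points that is smaller than the spread between libraries (exact two-sided permutation test, p = 0.9). The gate, which should remove macrophages, can set this share. The median UMIs of C1q+ cells were 3231, 3082 and 747 in the H2-O KO libraries versus 760, 1304 and 1014.5 in H2-O WT (exact two-sided permutation test, p = 0.4), and the genotypes overlapped.

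**Figure D2:**
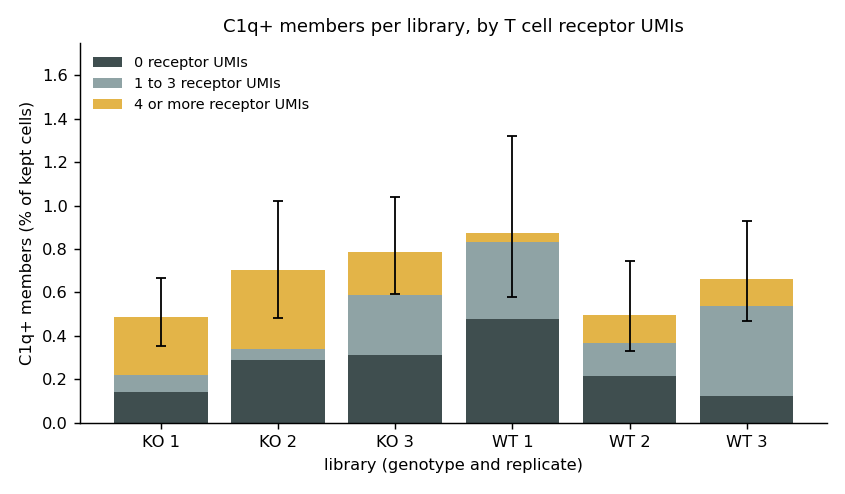
Bars give C1q+ cells as percent of kept cells in each library, divided by T cell receptor UMIs per cell, and error bars are Wilson 95% intervals of the whole bar. The whole bars of H2-O KO (0.487% to 0.786%) and H2-O WT (0.497% to 0.873%) overlap, and the receptor-rich part is smallest in H2-O WT replicate 1.

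The label of the cells was then checked against a list of 20 red pulp macrophage genes. All 20, of which Hmox1 and Slc40a1 also belong to the iron and heme list, had a UMI in C1q+ cells, 19 stood over 2-fold and 15 over 10-fold above other kept cells. Folds are ratios of mean CPM over 6 libraries with 10 CPM added, and they describe cells that were chosen by C1q in the same counts, with no test. CPM counts 1 end of each molecule and is not divided by gene length, so values are compared within a gene.

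Vcam1, an adhesion molecule that marks splenic red pulp macrophages, stood at 375, 365 and 660 CPM in the H2-O KO libraries versus 2241, 879 and 518 CPM in H2-O WT, against 0.542 CPM in other kept cells. Spic stood at 239 CPM ± 159 (SD, n = 6) against 0.304 CPM, and Cd5l, a secreted macrophage protein that Spic-dependent macrophages make, at 281 CPM ± 125 (SD, n = 6) against 0.0511 CPM. H2-O WT replicate 1 was the highest library for all of these genes and also had the fewest receptor-rich cells. Adgre1, which encodes F4/80, stood at 182 CPM ± 111 (SD, n = 6), Treml4 at 153 CPM ± 82.7 and Axl, a receptor for dying cells, at 278 CPM ± 182. Fcna (ficolin A) stood at 762 CPM ± 362 (SD, n = 6) and Mrc1, the mannose receptor, at 300 CPM ± 178, where 0.278 and 0.102 CPM were found in other kept cells.

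Of 4 markers that define the type (Hmox1, Slc40a1, Vcam1, Spic), at least 1 was present in 174 of the 190 cells (91.6%) and 2 or more in 140. In cells without receptor UMIs the first count was 66 of 69, and in receptor-rich cells 52 of 60. At least 1 UMI of these markers was thus spread over most single cells, receptor-rich cells included, and 16 cells had none of the 4. Among other kept cells, 1.55% had Hmox1, 0.206% Vcam1, 0.161% Slc40a1 and 0.110% Spic. A single UMI does not set the type of a cell. Cd163, a receptor for hemoglobin, was thin at 35.7 CPM ± 46.3 (SD, n = 6), with UMIs in 5.26% of the cells.

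The 25 genes with the largest fold over other kept cells, among genes found in at least 20% of C1q+ cells, were led by the chains that chose them. C1qb stood at 1542 CPM ± 594 (SD, n = 6), C1qa at 1381 CPM ± 553 and C1qc at 1369 CPM ± 565, where other kept cells hold 0 by the rule. Next came Hmox1 at 136-fold, Apoe at 105-fold, Fcer1g at 83.6-fold, Vcam1 at 80.6-fold, Slc40a1 at 79.3-fold and Slpi, a secreted protease inhibitor, at 78.6-fold. Tyrobp, an adaptor of activating receptors, stood at 1037 CPM ± 511 (SD, n = 6) against 6.45 CPM, and Csf1r, the receptor that macrophages need for survival, at 401 CPM ± 186 against 1.2 CPM. All 16 pan-myeloid genes stood over 2-fold and 9 over 10-fold above other kept cells. The myeloid genes Aif1, Cd68, Sirpa, Marcks and Hpgd, the growth factor Igf1 and the invariant chain Cd74 were also among the 25.

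**Figure D3:**
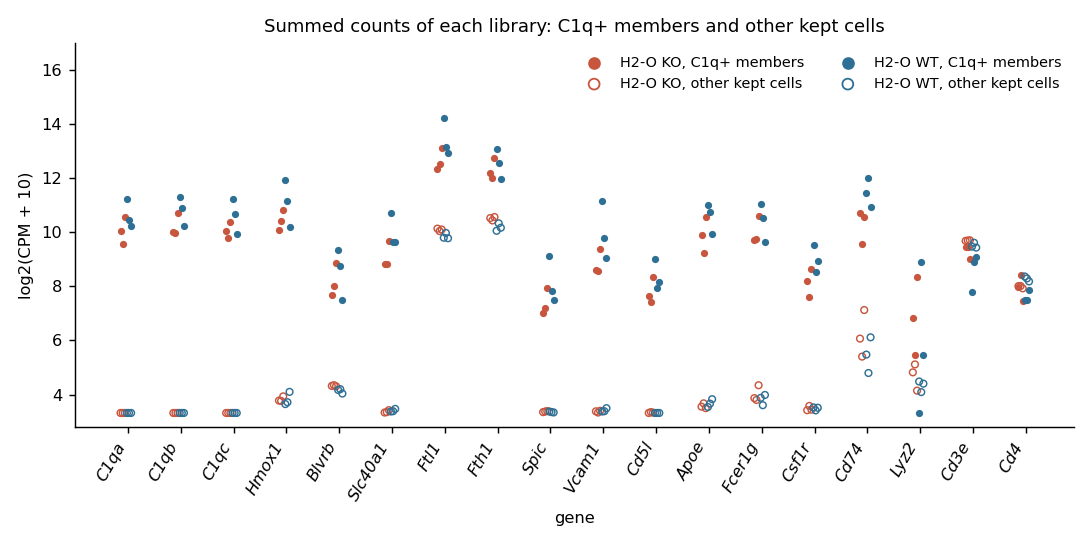
Points give log2(CPM + 10) of summed counts in each of 6 libraries for 18 genes, filled for C1q+ cells and open for other kept cells, coloured by genotype. The macrophage genes lie far above other kept cells in every library, with Lyz2 an exception in H2-O WT replicate 1, while Cd3e and Cd4 lie near or below them.

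C1qa (136895917 to 136898803), C1qc (136889804 to 136893065) and C1qb (136880129 to 136886187) lie side by side on the minus strand of chromosome 4 in GRCm38. The 250 bases before the start of C1qb and of Spic are shown because these genes carry the definition and the lineage of the cells. Both windows are from RefSeq on GRCm38.p6, minus strand, 5′ to 3′. Capitals mark TGCTGA, which is only a part of the longer stress-response element that Bach1 recognises:
C1qb chr4:136886201-136886450: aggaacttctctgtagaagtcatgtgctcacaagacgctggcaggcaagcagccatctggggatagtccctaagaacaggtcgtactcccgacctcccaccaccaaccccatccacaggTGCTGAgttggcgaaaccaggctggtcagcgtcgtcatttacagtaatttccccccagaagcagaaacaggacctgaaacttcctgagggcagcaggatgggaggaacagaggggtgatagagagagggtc
Spic chr10:88683024-88683273: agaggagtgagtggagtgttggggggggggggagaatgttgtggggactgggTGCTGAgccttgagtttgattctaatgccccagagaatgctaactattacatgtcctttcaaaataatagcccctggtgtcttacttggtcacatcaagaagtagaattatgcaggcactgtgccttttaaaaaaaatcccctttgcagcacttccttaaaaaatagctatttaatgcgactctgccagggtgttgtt

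The capitals begin 131 bases before the RefSeq start in C1qb and 198 in Spic. The Spic window lies inside the GENCODE span of the gene (88674772 to 88685015), so the RefSeq start used differs from the GENCODE one. TGCTGA was searched on both strands, and 16.1% of 32851 windows of this length hold it. The windows of C1qc, Fcer1g and Apoe do not hold these letters. A match describes the sequence and is no evidence of binding.

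Heme breakdown genes were high in every library. Hmox1 (chromosome 8, 75093621 to 75100589) stood at 1083, 1359 and 1788 CPM in the H2-O KO libraries versus 3933, 2265 and 1173 CPM in H2-O WT, against 4.25 CPM ± 1.69 (SD, n = 6) in other kept cells, and was found in 77.9% of C1q+ cells against 1.55%. H2-O WT replicate 1 was highest, H2-O KO replicate 1 lowest, and the genotypes overlapped. Blvrb stood at 355 CPM ± 180 (SD, n = 6), 19.4-fold above other kept cells, and Blvra at 95.4 CPM ± 63.2, 2.93-fold above the 26 CPM of other kept cells.

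Iron storage and export followed. Ftl1, the ferritin light chain, was found in all 190 cells and stood at 5151, 5800.1 and 8817 CPM in the H2-O KO libraries versus 18859.9, 9161 and 7833 CPM in H2-O WT, 9.22-fold above other kept cells. Fth1, the heavy chain, stood at 4639.7, 4053 and 6877 CPM against 8499.7, 6051 and 4037 CPM, 4.36-fold above. Both ferritin chains are also abundant in T cells, at 997 CPM ± 104 (SD, n = 6) for Ftl1 and 1299 CPM ± 179 for Fth1. Slc40a1 (ferroportin) stood at 443.5, 445 and 812 CPM against 1649, 794 and 794 CPM, and at 0.503 CPM in other kept cells.

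Of the 26 genes in the iron and heme list, 23 had a UMI in C1q+ cells, 13 stood over 2-fold and 6 over 10-fold above other kept cells, with a median of 1.94-fold where all genes had 0.968. Hebp1, a heme-binding protein, stood at 225 CPM ± 123 (SD, n = 6) and Slc11a1 (Nramp1), which pumps metal out of the phagosome, at 113 CPM ± 61.3, 22.7-fold and 12.0-fold above. Trf, which encodes transferrin, the iron carrier of plasma, stood at 676 CPM ± 388 (SD, n = 6) against 1.36 CPM. Slc48a1, which moves heme out of the lysosome, and Ncoa4, which sends ferritin to breakdown, were 4.06-fold and 2.03-fold above. Tfrc, the transferrin receptor, stood at 10.9 CPM ± 14.4 (SD, n = 6) against 16.9 in other kept cells, and Bach1, the repressor of Hmox1, at 10.8 CPM ± 13 against 31.1, both from few UMIs. Hpx, Nqo1 and Flvcr2 had 0 UMIs, and 3 counts in 418307 UMIs, the limit that a count of 0 allows, are 7.17 CPM.

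Across the 69 cells without receptor UMIs, Hmox1 and Ftl1 rank-correlated at 0.53 and Hmox1 and Slc40a1 at 0.25 (Spearman, a description over cells that share depth). Ftl1 correlated at 0.53 with the total UMIs of the cell. Hmox1 and the sum of class II chains correlated at 0.04, a weak relation in sparse counts.

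Of 12 complement genes, 7 had a UMI and 6 stood over 2-fold above other kept cells, but 3 of these are the C1q chains that chose the cells. C4b, C3ar1, C5ar1 and Vsig4 were among those with 0. Cfp, which encodes properdin, the stabiliser of the alternative pathway convertase, stood at 479 CPM ± 215 (SD, n = 6) against 1.74 CPM in other kept cells. C2 had 10 UMIs and C3 had 7.

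Genes for taking up and degrading cells were well represented. Of 18 uptake genes, 14 had a UMI and 11 stood over 2-fold above other kept cells, with Stab1, Gas6, Pros1 and Cd209f at 0. Mertk, a receptor for dying cells, stood at 63.4 CPM ± 35.8 (SD, n = 6) and the Fc receptor genes Fcgr3 and Fcgr4 at 105 CPM ± 54.2 and 86.7 CPM ± 76.6. All 18 lysosomal genes had a UMI and 14 stood over 2-fold above. Ctsb (cathepsin B) stood at 2053 CPM ± 832 (SD, n = 6), 15.2-fold above other kept cells, Lgmn (legumain) at 317 CPM ± 166, 15.6-fold above, and Psap (prosaposin) at 1426 CPM ± 621, 6.80-fold above. Of 12 lipid genes all had a UMI and 8 stood over 2-fold above, led by Apoe at 1290.5 CPM ± 543 (SD, n = 6).

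Transcription factors and secreted factors of macrophages were present too. Of 14 macrophage factors, 13 had a UMI and 8 stood over 2-fold above other kept cells. Nr1h3, the sterol sensor LXR-alpha, stood at 95.7 CPM ± 39.3 (SD, n = 6), Spi1 (PU.1) at 72.8 CPM ± 46.5 and Irf8 at 86.7 CPM ± 57.9. Of 18 chemokine and cytokine genes, 14 had a UMI and 5 stood over 2-fold above, among them Igf1 at 251 CPM ± 157 (SD, n = 6) and Il18 at 156 CPM ± 75.9. Tgfb1 stood at 307 CPM ± 77.0 and 2.04-fold above, and Ccl2, Ccl12, Pf4 and Il1rn had 0 UMIs.

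MHC class II genes were present but unevenly so. H2-Aa, the alpha chain of I-A, stood at 554, 137 and 234 CPM in the H2-O KO libraries versus 254, 1065 and 242 CPM in H2-O WT, against 11.1 CPM ± 9.98 (SD, n = 6) in other kept cells and 4746 CPM ± 616 in the B cell set. H2-Ab1, its beta chain, stood at 266 CPM ± 187 (SD, n = 6) and H2-Eb1, the beta chain of I-E, at 308 CPM ± 183. Cd74, the invariant chain that occupies the groove until peptide is loaded, stood at 1663, 754 and 1513 CPM in the H2-O KO libraries versus 2749, 4040 and 1932 CPM in H2-O WT. Of the 16 genes in the class II list, 15 had a UMI, 9 stood over 2-fold and 4 over 10-fold above other kept cells. Ciita, the activator of class II genes, stood at 1.90 CPM ± 4.66 (SD, n = 6), and Cd80 had 0 UMIs while Cd86 stood at 86.5 CPM ± 43.2.

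A few cells held much of the class II RNA. A class II chain (H2-Aa, H2-Ab1 or H2-Eb1) was found in 96 of the 190 cells (50.5%), 43 of the 69 without receptor UMIs and 19 of the 60 receptor-rich. The top cell, from H2-O KO replicate 1, held 85 chain UMIs (20.8% of the total) and 68 Cd74 UMIs, with 24 of C1q and 1 of Hmox1 and 0 of Slc40a1, Vcam1 and Spic. The next, from H2-O WT replicate 2, held 66 (16.2%), with 24 of C1q, 25 of Lyz2 and 20 of the interferon-induced chemokine Cxcl9, and 0 of Hmox1. These cells thus met the C1q rule with 0 or 1 UMI of each of the 4 defining red pulp markers. They were singled out after their values were seen.

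Without these top cells, the chains stood at 390, 331 and 743 CPM in the H2-O KO libraries versus 719, 1227 and 707 CPM in H2-O WT, in place of 1109, 331, 743, 719, 2316 and 707 CPM. In H2-O KO replicate 1 and H2-O WT replicate 2, 1 cell each thus held a large part of the class II RNA. Hmox1 was spread more evenly, with 671 UMIs in 148 cells and 6.41% of them in its top pair of cells, where H2-Aa had 40.1%.

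The peptide editors were rare in the C1q+ cells. H2-Oa had 3 UMIs of 418307 in all, 7.17 CPM with an exact Poisson 95% interval of 1.48 to 21, against 4.61 CPM in other kept cells. H2-Ob (chromosome 17, 34238903 to 34254414) had 4, 1 and 1 UMIs in the H2-O KO libraries versus 2, 1 and 3 in H2-O WT, 28.7 CPM in all (14.8 to 50.1), against 24.5 CPM in other kept cells. In the B cell set H2-Ob stood at 649, 500.2 and 416 CPM in the H2-O KO libraries versus 644, 395 and 432 CPM in H2-O WT. The 69 cells without receptor UMIs had 0 of H2-Oa and 16.3 CPM of H2-Ob. At this depth, neither H2-O chain could be told from its level in the other kept cells. H2-DMa and H2-DMb1, chains of H2-M, the peptide editor that H2-O acts with, stood at 97.8 CPM ± 106 (SD, n = 6) and 50.6 CPM ± 33.1, 2.70-fold and 5.37-fold above other kept cells. Of the 35 H2-DMa UMIs, 18 came from H2-O WT replicate 2, at 304 CPM, and the pooled H2-O KO libraries stood at 36.0 CPM in C1q+ cells and 36.0 CPM in other kept cells.

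**Figure D4:**
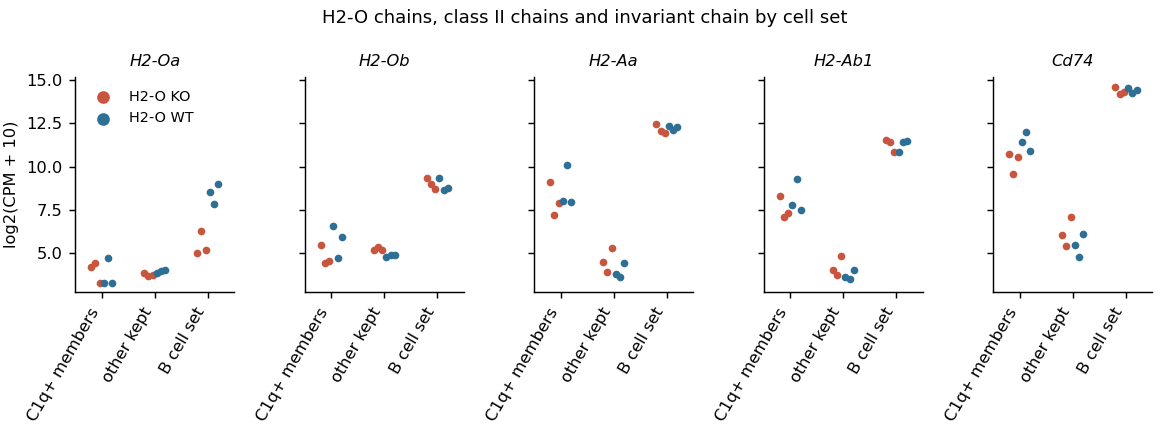
Points give log2(CPM + 10) of H2-Oa, H2-Ob, H2-Aa, H2-Ab1 and Cd74 in each library for C1q+ cells, other kept cells and the B cell set, coloured by genotype. H2-Aa and Cd74 of C1q+ cells lie between the other sets, whereas H2-Oa and H2-Ob lie near other kept cells, and H2-Oa of every H2-O KO library lies below every H2-O WT library in the B cell set and, within a narrow range of 3.07 to 6.83 CPM, in other kept cells.

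Lists for other cell types were then counted. Of 20 T cell genes all had a UMI and 0 stood over 2-fold above other kept cells, with Cd3e at 519 CPM ± 177 (SD, n = 6) against 766 CPM. Of 13 B cell genes 7 had a UMI, with Pax5, Ighd, Fcer2a, Cd22 and Fcrla among those at 0. Ighm was the most abundant of the 13, at a mean of 229 CPM, with 96 UMIs in 48 cells. Summed, the 13 genes stood at 358 CPM in C1q+ cells and 262 CPM in other kept cells, and 1 gene stood over 2-fold above. Bank1, a B cell scaffold, stood at 102 CPM ± 80.7 (SD, n = 6), from 31 UMIs in 27 cells. It had 227 CPM in receptor-poor and 13.4 CPM in receptor-rich cells. Of 7 neutrophil genes 1 had a UMI and of 6 platelet genes 0. Of 10 dendritic cell genes 3 had a UMI, with Flt3, Zbtb46, Xcr1 and Clec9a at 0. Of 10 monocyte genes 7 had a UMI and 0 stood over 2-fold above, with Fn1, Ace and Chil3 at 0.

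Of 4 genes of marginal zone macrophages, 2 stood over 2-fold above other kept cells, both from few UMIs. Marco, a scavenger receptor of marginal zone macrophages, had 16 UMIs in 9 cells, Siglec1 5 UMIs in 3 cells, and Cd209b and Cd209d had 0. Lyz2, abundant in monocytes and many macrophages, had 68 UMIs in 15 cells, 50.0% of them in its top pair of cells. Hemoglobin RNA was confined to few cells, with 53 Hba-a1 UMIs in 6 cells and 77.4% of them in 2. All 34 Gzma UMIs came from 1 cell.

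The remaining lists held 2 of 5 plasma cell genes, 4 of 6 plasmacytoid dendritic cell genes, 2 of 7 endothelial and stromal genes and 4 of 6 cell cycle genes with a UMI, and 0 of these stood over 2-fold above other kept cells. All 6 Treg genes, 7 NK genes, 8 erythroid genes, 10 dissociation stress genes and 10 interferon genes had a UMI. Over 2-fold above were 0, 1, 5, 0 and 2 of them. Of the stress genes, Junb stood at 1444 CPM ± 640 (SD, n = 6) against 2591 CPM in other kept cells.

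Counts of C1q+ cells were then summed per library and compared between genotypes by edgeR. Of 921 genes tested, 1 was called at an adjusted p under 0.05, which is 0.109%, and 97 had an unadjusted p under 0.05. The called gene was Igfbp4, a secreted binding protein of insulin-like growth factors that naive CD4 T cells also express. It stood at 887, 776 and 812 CPM in the H2-O KO libraries versus 42.3, 186 and 224 CPM in H2-O WT, without overlap (log2 fold change 2.15, SE 0.32, edgeR adjusted p = 0.00462).

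Igfbp4 stood at 799 CPM in the receptor-rich C1q+ cells and at 143 CPM in the receptor-poor. In other kept cells it stood at 721, 732 and 581 CPM in the H2-O KO libraries versus 426, 463 and 465 CPM in H2-O WT. The call was lost without H2-O KO replicate 2 (log2 fold change 2.21, edgeR adjusted p = 0.0629), without H2-O WT replicate 2 (2.17, adjusted p = 0.0603) and without a maximum of UMIs (1.99, adjusted p = 0.0616). The call was also lost with the replicate number as a block (2.20, edgeR adjusted p = 0.104). It could not be tested in receptor-poor cells, where Igfbp4 failed the low-count filter. With H2-O KO replicate 3 left out, 6 genes were called, and with H2-O WT replicate 1 left out, 2. In sums of this kind, fewer cells of a type and less RNA per cell cannot be told apart.

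Of the macrophage genes tested, 0 were called with all libraries and cells, though the fold changes of the lists below had the same sign. Apoe differed by -0.71 (log2, H2-O KO minus H2-O WT) and Fcer1g by -0.50. The C1q chains differed by -0.64 (C1qa), -0.69 (C1qb) and -0.68 (C1qc), which is a description only, since at least 3 of their UMIs chose each cell and their CPM therefore depends on the depth of the cells. The 12 of 20 red pulp genes that passed the low-count filter had a median of -0.89, the 8 of 26 iron and heme genes -0.64, the 10 of 16 pan-myeloid genes -0.77, the 11 lysosomal genes -0.71 and the 6 class II genes -0.94, each with all members below 0 and 0 called. These lists share genes, among them Csf1r, Cd68 and Sirpa (red pulp and pan-myeloid) and Hmox1 and Slc40a1 (red pulp and iron), so their medians are not independent. The median of all 921 genes was 0.02. The 20 T cell genes had a median of 0.31, with 16 above 0 and 0 called.

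The nearest to a call among macrophage genes were Cd74 (log2 fold change -1.25, SE 0.28, edgeR adjusted p = 0.0914) and Cd68 (-1.36, SE 0.31, adjusted p = 0.0937). Both had no overlap between genotypes. Cd74 was called with a minimum of 2 C1q UMIs (-1.51, edgeR adjusted p = 0.00487), and Mrc1 without H2-O KO replicate 3 (-2.15, edgeR adjusted p = 0.0302). Hmox1 differed by -0.87 (SE 0.34, edgeR adjusted p = 0.370), Slc40a1 by -0.98 (SE 0.34, adjusted p = 0.311), Ftl1 by -0.98 (SE 0.32, adjusted p = 0.279) and Fth1 by -0.36 (SE 0.27, adjusted p = 0.714). Cd3e differed by 0.43 (SE 0.28, edgeR adjusted p = 0.659) and Cd4 by 0.26 (SE 0.38, adjusted p = 0.845).

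Most of these directions did not hold in the 130 receptor-poor cells, a range set after seeing the values. There Hmox1 differed by 0.32, Slc40a1 by 0.18, Ftl1 by 0.13 and Fth1 by 0.67, and 0 of 246 genes were called by edgeR (lowest adjusted p = 0.213, 25 genes at an unadjusted p under 0.05). The iron and heme genes tested had a median of 0.26 (6 genes, all above 0), the red pulp genes 0.16 (6 of 11 above 0) and the class II genes 0.28 (5 of 6 above 0), where all genes had 0.03. Vcam1 kept its sign at -0.24 and Cd74 at -0.10. In the 69 cells without receptor UMIs the signs were mixed, with Hmox1 at 0.42, Ftl1 at 0.01, Slc40a1 at -0.22, Vcam1 at -0.35 and Cd74 at -0.09. There the list medians were 0.08 for iron and heme genes (4 of 5 above 0), -0.03 for red pulp genes (3 of 6), -0.19 for pan-myeloid genes (3 of 7), -0.07 for lysosomal genes (3 of 6) and -0.18 for class II genes (0 of 2), against 0.05 for all 146 genes tested. Of these, 2 were called by edgeR, both without overlap between genotypes. Ifi27l2a, an interferon-induced gene, stood at a mean of 2332 CPM in the H2-O KO libraries versus 843 CPM in H2-O WT (log2 fold change 1.35, SE 0.32, edgeR adjusted p = 0.0270), and the mitochondrial mt-Co2 at 2874 versus 1118 CPM (1.31, SE 0.29, adjusted p = 0.0270). In all C1q+ cells they differed by 0.63 (edgeR adjusted p = 0.479) and 0.21 (adjusted p = 0.745). The median mitochondrial share of all C1q+ cells was 1.99%, 2.18% and 1.55% in the H2-O KO libraries. In H2-O WT it was 1.36%, 1.34% and 1.40%, without overlap, and its part in the mt-Co2 call was not tested. Receptor-rich cells numbered 47 of 113 in the H2-O KO libraries versus 13 of 77 in H2-O WT.

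**Figure D5:**
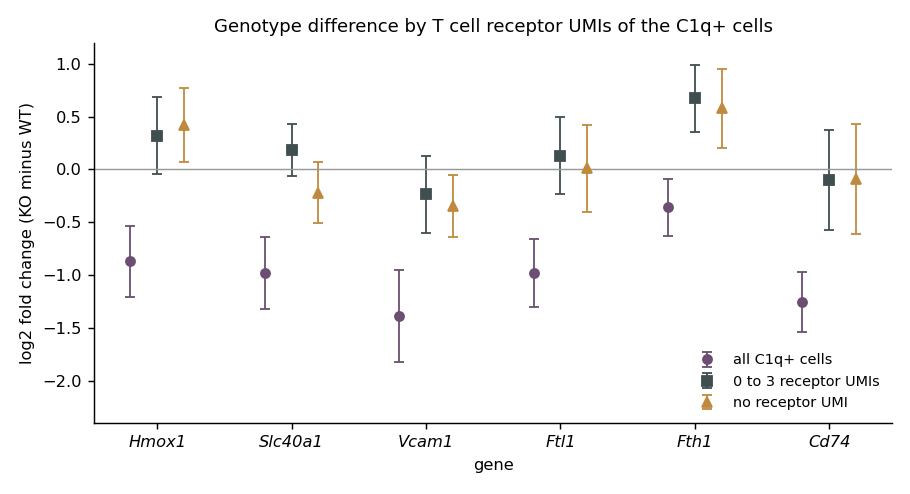
Points give the edgeR log2 fold change (H2-O KO minus H2-O WT) of 6 macrophage genes, and error bars are its SE, from sums of all C1q+ cells (circles), of the 130 cells with 0 to 3 T cell receptor UMIs (squares) and of the 69 cells with none (triangles). The circles lie below 0, from -1.39 for Vcam1 to -0.36 for Fth1, the squares lie above 0 except for Vcam1 and Cd74, the triangles above 0 except for Slc40a1, Vcam1 and Cd74, and no difference shown passed the test.

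The genotype difference of C1q+ cells was then compared with that of other kept cells, thinned to the same total UMIs in each library, with the library as a block. Of 1263 genes tested by edgeR, 8 were called, which is 0.633%, with 108 at an unadjusted p under 0.05. Among the lists, Fth1 was the only iron gene called. Its genotype difference in C1q+ cells was 0.80 below that in other kept cells (log2 difference -0.80, SE 0.21, edgeR adjusted p = 0.0312). The mean log2 CPM of Fth1 was 12.3 in the H2-O KO libraries versus 12.5 in H2-O WT C1q+ cells, and 10.6 and 9.90 in other kept cells. The call of Fth1 was kept without H2-O WT replicate 3 (log2 difference -1.24, edgeR adjusted p = 0.000123) and lost in the other 7 alternatives, at edgeR adjusted p-values of 0.0619 and above, among them other kept cells not thinned (-0.45, adjusted p = 0.964). The count of called genes rested on single libraries, with 1, 3 and 4 without H2-O KO replicates 1, 2 and 3 and 0, 4 and 6 without H2-O WT replicates 1, 2 and 3.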

How the data were processed

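Libraries of sorted splenic CD4 T cells were made with the 10x Genomics 5′ kit, and the authors counted UMIs per gene and called barcode with Cell Ranger 6.1.2 on mm10, per the submitters' processing notes. The deposited values are these whole-number counts for 32285 features, without normalization. All steps below were computed from them with Python 3.11.15 and R 4.3.3. No doublet caller was run, and only the upper limit on UMIs acts on doublets.

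UMIs were summed per library over C1q+ cells, since cells of 1 mouse are not replicates, and compared by the quasi-likelihood test of edgeR 4.0.16 after TMM normalization and its default filter on low counts, with Benjamini-Hochberg adjustment over all genes tested. DESeq2 1.42.0 was an alternative. For shares, the exact permutation test (two-sided) was run over libraries. The edgeR fits were checked on simulated counts. Their spread was set and not estimated from these libraries, and they held no library effect shared by the cell sets. The check therefore does not measure the error of the calls given here. Gene positions are from GENCODE for GRCm38, in which 32158 feature identifiers were found.

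The C1q rule, the 28 gene lists and the tests were chosen with earlier results of these data known. Genes named are C1q, H2-O, Cd3e and Cd4, called genes without overlap between genotypes, the 25 leading genes by fold, up to 6 abundant genes of each list, defining genes near 0, and a few singled out after their values were seen. Some genes of this rule are left out of the text. Alternatives varied the C1q minimum, the limits on cells, receptor UMIs, thinning, normalization, low-count filter, replicate block and each library left out. The mice's separate identity is from the study's design, and n of 3 per genotype sets the precision.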

Additional observations from a re-analysis of the deposited data

Results flagged for a closer look

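The genotype difference (H2-O KO minus H2-O WT) of C1q+ cells differed from that of other kept cells, by edgeR's test of the interaction on sums per library, in 8 genes. The log2 difference was 1.55 for Gm26917 (adjusted p = 0.00743), 2.94 for S100a11 (adjusted p = 0.00743), 3.20 for Nsg2 (adjusted p = 0.0250), 1.78 for Xist (adjusted p = 0.0250), 0.69 for the nuclear-retained Malat1 (adjusted p = 0.0250), -0.80 for Fth1 (adjusted p = 0.0312), 4.01 for the chemokine Ccl5 (adjusted p = 0.0312) and 1.48 for Igfbp4 (adjusted p = 0.0379), all from edgeR. Igfbp4 lost its call with each of the 6 libraries left out in turn. Fth1, Malat1 and Igfbp4 kept theirs in 1 of 8 alternatives each (6 libraries left out in turn, other kept cells not thinned, and the B cell set in their place), Gm26917 in 4 of 8, S100a11 in 5 of 8, Xist in 2 of 8, and Nsg2 and Ccl5 in 2 of 7. In all, 0 to 6 genes were called with 1 library left out. Mean log2 CPM of Malat1 in C1q+ cells was 12.9 in H2-O KO versus 12.8 in H2-O WT, against 13.1 and 13.9 in other kept cells, and that of S100a11 was 8.22 and 4.79 against 7.96 and 7.79. The part of receptor-rich cells, and of the low ribosomal protein share of H2-O WT replicates 1 and 3, in these differences was not tested.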

How the results depend on the processing

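The difference in the share of C1q+ cells between genotypes, -0.0179 percentage points, had no stable sign. It was 0.00959 with a minimum of 5 C1q UMIs, 0.102 with a mitochondrial limit of 10%, 0.179 for receptor-rich and -0.197 for receptor-poor cells alone (both chosen after seeing the data), and -0.108 to 0.0802 with 1 library left out. The Cd3e difference was -0.238 points when thinned to 3000 UMIs and 20.4 to 42.6 with 1 library left out. The difference in median UMIs, 1327, was 70.0 with a minimum of 5 C1q UMIs, -119 in receptor-poor cells (chosen after seeing the data) and 888 to 2130.3 with 1 library left out. The causes were not tested.

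The count of genes called by edgeR, 1 of 921, was 3 with a minimum of 2 C1q UMIs, 3 with a mitochondrial limit of 10%, 0 without a maximum of UMIs, 2 of 146 in cells without receptor UMIs, 0 in receptor-poor cells, 2 without scaling beyond the library total (which moved the median of all genes from 0.02 to 0.14), 14 of 11360 with every gene that had a UMI, and 0 to 6 with 1 library left out. With the replicate number as a block it was 0, with Igfbp4 at 2.20 (edgeR adjusted p = 0.104). Deviations of same-numbered libraries correlated at -0.05, 0.07 and -0.17, and those of differently numbered libraries at -0.15 to 0.18. With sums of so few cells, these correlations cannot decide whether the numbers pair the mice. DESeq2 called 1. The interaction count, 8, was 1 against the B cell set and 0 to 6 with 1 library left out.

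In cells without receptor UMIs and in receptor-poor cells, some log2 differences turned positive, to 0.42 and 0.32 for Hmox1, 0.0099 and 0.13 for Ftl1 and 0.58 and 0.67 for Fth1. The C1q chains, which chose the cells and are no evidence of a direction, were at 0.34 and 0.35 (C1qa), 0.51 and 0.46 (C1qb) and 0.50 and 0.40 (C1qc). Slc40a1 turned to 0.18 in receptor-poor cells but stayed at -0.22 without receptor UMIs, where Vcam1 (-0.35) and Cd74 (-0.09) also stayed below 0, and Cd4 to -0.18 with a minimum of 2 C1q UMIs. Depth limits these results, since 100 of the 190 cells held under 1000 UMIs.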

Other observations

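The neighbouring chromosome 17 genes Glo1 (30584936 to 30626871), which encodes a detoxifying glyoxalase, and Dnah8 (30624354 to 30877365), an axonemal dynein, were singled out after their values were seen. Dnah8 in C1q+ cells stood at 93.8, 114 and 234 CPM across H2-O KO replicates and 42.3, 33.8 and 34.5 CPM across H2-O WT replicates, without overlap, from 43 UMIs in all. Glo1 stood at 111, 228 and 138 CPM versus 127, 16.9 and 34.5 CPM, where H2-O WT replicate 1 overlapped the H2-O KO libraries with 3 UMIs. In other kept cells Glo1 stood at 165, 161 and 163 CPM versus 52.9, 57.2 and 47.6 CPM. Pooled over the B cell set, Glo1 stood at 119 CPM in H2-O KO versus 45.1 CPM in H2-O WT, from 44 UMIs in all. Dnah8 stood there at 67.0 versus 9.03 CPM, from 23 UMIs. H2-O WT replicate 1, with 1 Glo1 UMI (92.1 CPM), overlapped H2-O KO replicate 1 (88.5 CPM). In the 69 C1q+ cells without receptor UMIs, Dnah8 had 1 UMI and Glo1 had 8, of 61326 UMIs in all, too few to compare. The part of T cell RNA in the values of C1q+ cells was not tested.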
